A study of Mus musculus with 24 samples.

Results

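The lysosomal genes described here are 33 transcripts chosen by name for the enzymes, membrane proteins, transcription factors and proton pump of the lysosome, with the cathepsins left out. All 33 were matched to a probe through its RefSeq identifier, and all 33 were among the 35259 genes and unnamed probes tested. They comprise 17 hydrolases and their activators, 8 membrane proteins and cholesterol transporters, 2 transcription factors and 6 subunits or accessory proteins of the vacuolar proton pump. Total RNA of the hippocampus came from 24 male mice of the line B6.Cg-Tg(APPswe,PSEN1dE9)85Dbo/J, with 1 Agilent one-colour array per animal. Neither transgene was present in WT_CTR (n = 4) or WT_WASHOUT (n = 5). Both the APP and the PSEN transgene were present in the 3 animals of APP-PS1_CTR, the 4 of APP-PS1_UA, the 3 of APP-PS1_WASHOUT and the 5 of APP-PS1_UA-WASHOUT. APP-PS1_UA and APP-PS1_UA-WASHOUT received urolithin A by gavage from 2 to 7 months of age, the 4 other groups received water, and the 3 washout groups were kept 1 month longer. The wild-type groups received no urolithin A, so its action without the transgenes was not measured. The treatment protocol gives the dose as 200 mg/kg/day and the series design text as 20 mg/kg/day. The characteristics give the ages as 8 months, and 9 months for the washout groups, whereas collection falls at 7 months, and 1 month after that, by the design text.

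Lysosomes break down proteins, lipids, glycans and nucleic acids with hydrolases that work at the acidic pH set by the vacuolar ATPase, a proton pump with a membrane sector (V0) and a catalytic sector (V1). Glycosylated membrane proteins such as Lamp1 and Lamp2 line the organelle, and the transcription factors Tfeb and Tfe3 raise many lysosomal genes together through E-box elements in their promoters. In brains with amyloid, microglia around plaques hold abundant lysosomes marked by Cd68, and loss of single members (Grn, Ppt1, Tpp1, Npc1, Idua and others) causes neurodegenerative storage disease. Urolithin A is a product of gut bacteria that is known to induce mitophagy, in which mitochondria are degraded in lysosomes.

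The promoters of 4 members that changed below are shown because they differ in the E-box CACGTG through which Tfeb and Tfe3 act. The windows are the 250 bases before the transcription start used in the RefSeq promoter entries (GRCm38.p6), read 5′ to 3′ on the strand of the gene, at chr11:69666171-69666420 (minus strand) for Cd68, chrX:134601006-134601255 (minus strand) for Gla, chr11:119267713-119267962 (plus strand) for Gaa and chr16:44139260-44139509 (minus strand) for Atp6v1a. Capitals mark the E-box, with its flanking bases where it lies within TCACGTGA.
Cd68: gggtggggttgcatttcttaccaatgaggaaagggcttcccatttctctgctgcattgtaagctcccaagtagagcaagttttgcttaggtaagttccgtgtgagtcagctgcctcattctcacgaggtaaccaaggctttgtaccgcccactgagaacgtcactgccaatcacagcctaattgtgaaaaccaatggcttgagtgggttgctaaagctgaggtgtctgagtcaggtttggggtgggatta
Gla: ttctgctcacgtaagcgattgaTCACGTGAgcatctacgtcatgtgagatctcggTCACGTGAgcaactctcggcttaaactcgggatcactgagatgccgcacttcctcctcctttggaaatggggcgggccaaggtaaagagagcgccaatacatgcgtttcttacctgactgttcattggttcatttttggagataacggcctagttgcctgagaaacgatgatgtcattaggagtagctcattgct
Gaa: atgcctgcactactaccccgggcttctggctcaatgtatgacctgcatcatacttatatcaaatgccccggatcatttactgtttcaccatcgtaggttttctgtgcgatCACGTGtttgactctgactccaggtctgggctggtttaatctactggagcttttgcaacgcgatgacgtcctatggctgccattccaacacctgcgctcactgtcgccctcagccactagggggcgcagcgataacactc
Atp6v1a: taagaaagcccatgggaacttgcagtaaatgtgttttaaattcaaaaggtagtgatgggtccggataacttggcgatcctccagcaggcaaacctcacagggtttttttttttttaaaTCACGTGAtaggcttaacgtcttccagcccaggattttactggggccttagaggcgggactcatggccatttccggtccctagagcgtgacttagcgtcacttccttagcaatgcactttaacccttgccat
For Atp6v1a this start lies inside the annotated span of the gene, not at its outer end. The Cd68 window held no E-box. The Gla window held 2 copies, beginning 227 and 194 bases before the start, and Gaa and Atp6v1a held 1 each, beginning 140 and 131 bases before it.

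Among the 29 members with a promoter entry, 9 (31.0%) held CACGTG within 250 bases before to 50 bases after the start, compared with 8.09% of 27025 mouse genes. The 9 were the hydrolases Gla, Glb1, Gaa, Naglu and Sgsh, the membrane proteins Lamp1 and Mcoln1, and the pump subunits Atp6v0d1 and Atp6v1a. The longer sequence TCACGTGA, which contains CACGTG, was present in Gla, Mcoln1, Atp6v0d1 and Atp6v1a (13.8%, and 1.12% of all genes). GTCACGTGAC was found in 0 of the 29 and in 0.370% of all genes. All 3 motifs read the same on both strands, and a match is a description of the sequence, not of binding. Npc1, Asah1, Atp6v1b2 and Atp6v1h were not matched to an entry.

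Values are log2 signals of 1 probe per gene relative to the 75th percentile of the array, given as mean ± SD, and a change is one group mean minus the other, with its standard error (SE) from limma. The probe used for each member was well above background on all 24 arrays. The share of spots well above background was 60.3% to 73.2% per array, with 0 saturated. The 24 arrays lay on 3 slides of 8. WT_CTR, APP-PS1_CTR and APP-PS1_UA replicate 1 were on slide 1, the other APP-PS1_UA arrays and WT_WASHOUT on slide 2, and APP-PS1_WASHOUT and APP-PS1_UA-WASHOUT on slide 3, whose arrays stood apart from the rest across the whole series. All 7 markers of hippocampal neurons tested were well above background on every array. Prnp, whose promoter is known to drive both transgenes of this line, lay between 5.74 and 6.14 on the 9 wild-type arrays and between 7.21 and 7.56 on the 15 transgenic ones, so it matched the labelled genotype on every array. The tests set each difference against the variation from animal to animal. These are bulk tissue measurements, in which fewer cells of a type and less RNA per cell cannot be told apart.

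Most members varied little between animals. The median SD of a member within a group ran from 0.11 in APP-PS1_CTR to 0.17 in WT_CTR, and 30 to 33 of the 33 members had an SD under 0.5 in each group. Grn varied most in 5 of the 6 groups, with an SD of 2.42 in WT_CTR and 0.19 in APP-PS1_WASHOUT, and in APP-PS1_UA Atp6ap2 (SD 0.58) and Npc2 (SD 0.50) also passed 0.5. On the heat map of deviations from the WT_CTR mean, Cd68 was raised on all transgenic arrays and Gla and Idua on the arrays of slide 3.

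**Figure D1:**
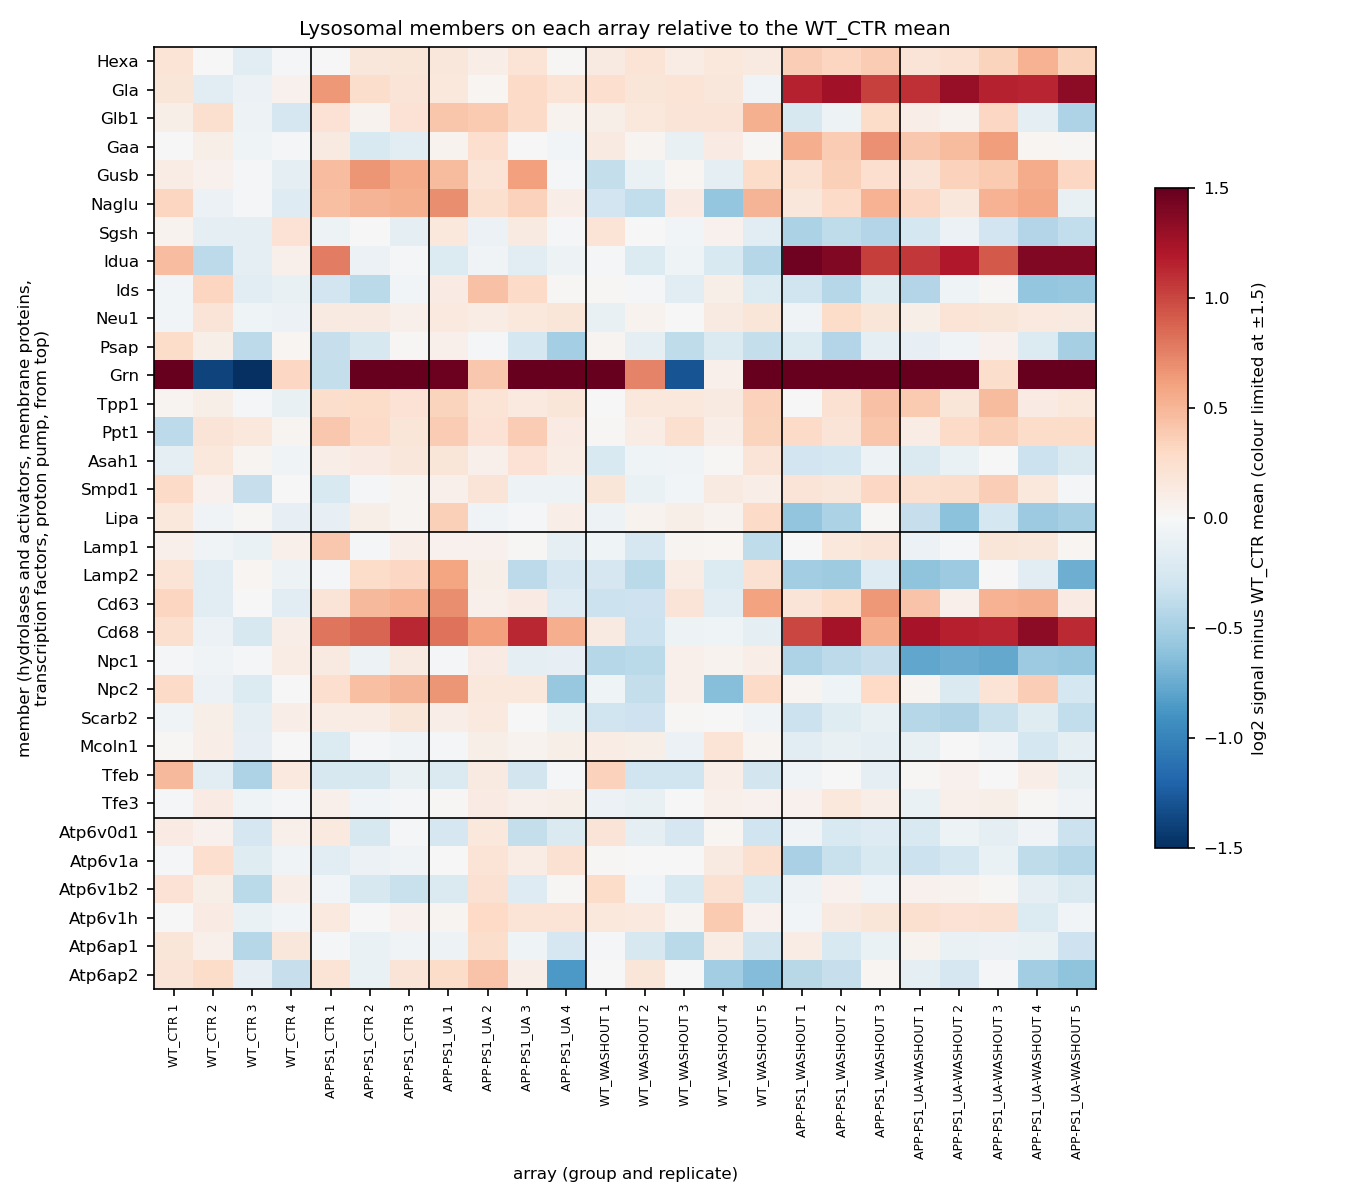
Log2 signal of each of the 33 members on each of the 24 arrays, minus the mean of the 4 WT_CTR arrays (colour, limited at ±1.5). Rows are ordered by role and columns by group; Cd68 is high on all 15 transgenic arrays, Gla and Idua on the 8 arrays of slide 3, and Grn scatters within groups.

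APP-PS1_CTR was compared with WT_CTR to ask what the transgenes change at the end of the gavage period. Cd68, a heavily glycosylated protein of the endosomal and lysosomal membrane of macrophages and microglia, was the single member that passed the test. It measured 1.17, 0.84, 0.69 and 1.03 on the 4 WT_CTR arrays and 1.73, 1.81 and 2.06 on the 3 APP-PS1_CTR arrays. Every transgenic array lay above every wild-type array. The means were 0.93 ± 0.21 (n = 4) and 1.87 ± 0.17 (n = 3), a 1.91-fold rise. In limma the log2 change was 0.93 with an SE of 0.16 and an adjusted p of 0.0168. The other Cd68 probe differed by 0.96 (SE 0.20), with an adjusted p of 0.0518 when every probe was tested on its own.

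Over the whole array 60 of 35259 genes (0.170%) were called in this comparison, 59 of them higher, and among the members 1 of 33 was called. Of the other 32 members, 21 were above 0 and 11 below, and the median change of all 33 was 0.12, beside -0.00 over all genes. Cd68 kept its size but not its call when the fit held only these groups, which all lay on slide 1 (0.93, adjusted p = 0.129), with the array row as a block (1.03, adjusted p = 0.261) and with the replicate number as a block (0.93, adjusted p = 0.0538). On slide 1 all WT_CTR arrays were in array row 1 and all APP-PS1_CTR arrays in row 2. Row and genotype therefore cannot be told apart within these groups, and the row block takes its row effect from other groups. Leaving out WT_CTR replicate 2, WT_CTR replicate 3, APP-PS1_CTR replicate 2 or APP-PS1_CTR replicate 3 also took the adjusted p above 0.05 (0.0618, 0.0596, 0.0645 and 0.147), with changes of 0.84 to 0.96.

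Microglial markers were read beside Cd68. All 12 of the listed microglial markers were above 0 and 5 were called higher, namely Cst7, Itgax, Trem2, Tyrobp and Fcrls. Their mean level relative to each marker's average over the 24 arrays ran from -0.94 to -0.65 in WT_CTR and from 0.29 to 0.44 in APP-PS1_CTR, and all 12 were well above background on every array. The homeostatic marker Tmem119 differed by 0.02. The share of the Cd68 difference that goes with these markers was not tested.

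Among the hydrolases and their activators, 12 of 17 were above 0 and 0 passed the test. Gusb, the β-glucuronidase, measured 0.28, 0.24, 0.15 and 0.03 in WT_CTR and 0.65, 0.84 and 0.73 in APP-PS1_CTR, and its groups did not overlap. Its change of 0.56 (SE 0.14) had an adjusted p of 0.195, and of 0.0117 when arrays were weighted by their quality. Gusb was not called in the other 14 of 15 processing alternatives, nor in the 7 fits that left out 1 array. Gla, the α-galactosidase A that removes galactose from glycolipids, measured 6.51, 6.17, 6.25 and 6.40 against 6.98, 6.59 and 6.52, which also did not overlap, although the lowest transgenic array was only just above the highest wild-type one. Its change was 0.37 (SE 0.12, adjusted p = 0.457).

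The next smallest p-values belonged to Ppt1 and Tpp1, the palmitoyl-protein thioesterase and the tripeptidyl peptidase whose loss causes neuronal ceroid lipofuscinosis. Ppt1 differed by 0.29 (SE 0.12, adjusted p = 0.730) and Tpp1 by 0.25 (SE 0.11, adjusted p = 0.734). Tpp1 was separated by array, at 3.33 to 3.52 in WT_CTR and 3.66 to 3.72 in APP-PS1_CTR. Ppt1 overlapped because WT_CTR replicate 2, at 2.56, passed the lowest transgenic array at 2.54, and WT_CTR replicate 3 lay just below that array at 2.52. Naglu, which degrades heparan sulfate, did not overlap either (0.50, SE 0.22, adjusted p = 0.739), with 1.70 to 2.21 in WT_CTR and 2.34 to 2.43 in APP-PS1_CTR. With Scarb2, the receptor that carries glucocerebrosidase to the lysosome (0.14, SE 0.10), 6 members had all transgenic arrays above all wild-type arrays and 0 had them all below. Over all genes 4.32% were separated upwards and 4.49% downwards.

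Among the other hydrolases and activators, leaving aside Grn, changes ran from -0.24 for Ids to 0.22 for Idua. These included Psap, the precursor of the saposins that aid glycolipid breakdown (-0.19, SE 0.17), the acid ceramidase Asah1 (0.13, SE 0.10) and the acid sphingomyelinase Smpd1 (-0.07, SE 0.13). Of the other membrane proteins, Lamp1 differed by 0.16 (SE 0.12), Lamp2 by 0.18 (SE 0.21) and the tetraspanin Cd63 by 0.40 (SE 0.22), all with overlapping groups. Npc1 and Npc2, which pass cholesterol out of the lysosome, differed by 0.06 (SE 0.13) and 0.40 (SE 0.24), and the calcium channel Mcoln1 by -0.09 (SE 0.08). Choroid plexus markers had a median change of 1.82 here, with 8 of 8 above 0 and 0 called, and a mean level from -2.42 to 2.57 in WT_CTR and from 0.68 to 2.36 in APP-PS1_CTR. WT_CTR replicate 1, the highest wild-type array for them, was also the highest of its group for Npc2 (2.20), Cd63 (4.84) and Naglu (2.21), and the bearing of choroid plexus tissue on these members was not tested. The 6 pump members lay between -0.20 for Atp6v1b2 and 0.10 for Atp6ap2 with a median of -0.05. Tfe3 differed by 0.00 (SE 0.08) and Tfeb by -0.19 (SE 0.18).

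**Figure D2:**
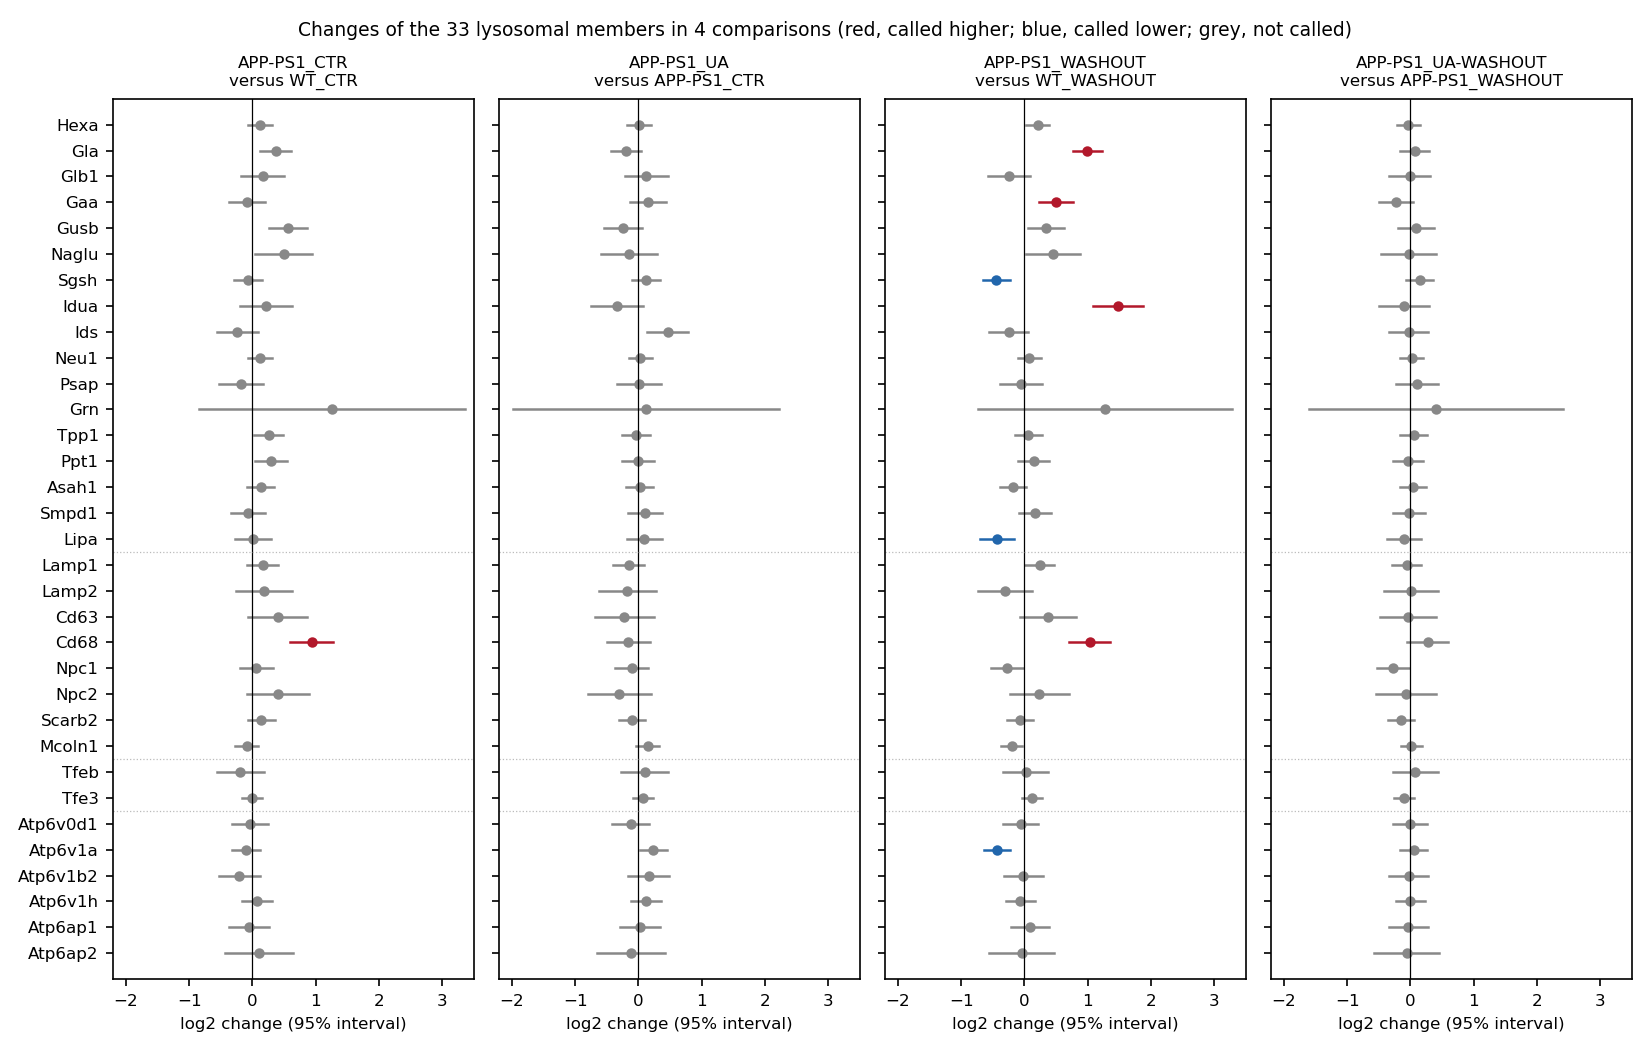
Log2 change of each of the 33 members in 4 comparisons, with 95% intervals of the limma fit. Red and blue mark members called higher and lower, and dotted lines separate hydrolases, membrane proteins, transcription factors and proton pump. From the first to the fourth comparison 1, 0, 7 and 0 members were called, beside 0.170%, 0.00%, 27.5% and 0.0652% of all genes. In the third, slide and genotype cannot be told apart.

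Of 80 lysosomal genes outside the members that were tested, 1 was called higher, Slc11a1, the phagosomal metal transporter of macrophages (0.99, SE 0.17, adjusted p = 0.0195). Of the 25 other hydrolases, 23 were above 0 and 0 were called, with a median change of 0.10. The list was not tested as a set. Of the 14 other pump subunits, 4 were above 0 and 0 were called.

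The effect of urolithin A before washout was measured between the transgenic groups APP-PS1_UA and APP-PS1_CTR. No member was called among the 33, and 0 of 35259 genes (0.00%) were called over the whole array by limma, where 2623 had an unadjusted p under 0.05 and 2 of these were members. Cd68 measured 1.74, 1.55, 2.07 and 1.48 on the 4 treated arrays. Its change was -0.16, with a 95% interval from -0.49 to 0.18, and the treated arrays overlapped those of APP-PS1_CTR. Compared with WT_CTR, the treated animals had all 4 arrays higher for Cd68 (0.78, SE 0.15, adjusted p = 0.0593), as they did for Tpp1 (0.22, SE 0.10). Over all genes 1.62% were separated upwards there. In that comparison 22 genes (0.0624%) and 0 members were called by limma, while 4 members and 2184 of the 35259 genes had an unadjusted p under 0.05. It shares the WT_CTR arrays with the first.

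Ids and Atp6v1a had the smallest p-values under urolithin A. Ids, the iduronate-2-sulfatase of dermatan and heparan sulfate breakdown, measured 5.39, 5.28 and 5.64 in APP-PS1_CTR and 5.80, 6.12, 5.97 and 5.70 in APP-PS1_UA. All treated arrays were above all control arrays, and the change was 0.46 (SE 0.15, adjusted p = 0.637). Atp6v1a, the catalytic A subunit of the V1 sector, measured 5.29, 5.36 and 5.38 against 5.45, 5.65, 5.55 and 5.67, again without overlap (0.24, SE 0.10, adjusted p = 0.663). These 2 members had all treated arrays higher and 0 had them all lower, beside 6.45% and 4.59% of all genes. The 4 WT_CTR arrays had a mean of 5.44 ± 0.18 for Atp6v1a and reached from 5.26 to 5.69, which takes in every array of both transgenic groups. APP-PS1_UA replicate 1 was the 1 treated array on slide 1, in array row 2 like the APP-PS1_CTR arrays. Treated replicates 2 to 4 were in row 1 of slide 2, so they differed from the untreated arrays in row as well. Within slide 1 the change was 0.36 (SE 0.24) for Ids and 0.10 (SE 0.20) for Atp6v1a. A block for slide gave the same changes because of the layout, since it also rests on this 1 treated array.

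The members with the next smallest p-values had negative changes, none of which passed the test. Gusb differed by -0.25 (SE 0.14, adjusted p = 0.693), Idua by -0.34 (SE 0.20, adjusted p = 0.696) and Gla by -0.20 (SE 0.12, adjusted p = 0.698). APP-PS1_UA replicates 1 and 3 held Gusb at 0.65 and 0.79, as high as the untreated arrays, and replicates 2 and 4 held it at 0.38 and 0.15. Because both comparisons use the APP-PS1_CTR arrays, a high value in them raises one change and lowers the other. Of the 8 membrane proteins, Mcoln1 alone was above 0 (0.14), and of the 6 pump members 4 were above 0.

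The intervals limit what could have been missed. The 95% interval of 24 members lay within ±0.5 and that of 32 within ±1, Grn being the member outside. The median change was 0.01, beside -0.01 over all genes. Choroid plexus markers varied widely, and all 8 had changes below 0, with a median of -2.44 and 0 called. Their mean level ran from 0.68 to 2.36 in APP-PS1_CTR and from -3.06 to 2.98 in APP-PS1_UA, with APP-PS1_UA replicate 1 highest and replicate 4 lowest, so the treated arrays spanned the whole untreated range. Npc2 was likewise highest on replicate 1 (2.57) and lowest on replicate 4 (1.35), and Cd63 followed the same order of extremes (5.21 and 4.32). The bearing of choroid plexus tissue on these members was not tested.

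The effect of the transgenes 1 month after gavage ended was measured between APP-PS1_WASHOUT and WT_WASHOUT. Gla, Idua, Cd68 and Gaa were called higher and Sgsh, Atp6v1a and Lipa lower, 7 of 33 members (21.2%). Over all genes 9702 of 35259 (27.5%) were called, 19.8% higher and 7.71% lower, so the share among the members was below that of the whole array. The transgenic arrays were all on slide 3 and the wild-type arrays all on slide 2, and here slide and genotype cannot be told apart. The median change of the members was 0.06, beside 0.07 over all genes.

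Cd68 measured 1.07, 0.61, 0.85, 0.87 and 0.80 on the 5 WT_WASHOUT arrays and 1.94, 2.18 and 1.48 on the 3 APP-PS1_WASHOUT arrays. The groups did not overlap, and the change was 2.04-fold (log2 1.03, SE 0.15, adjusted p = 4.2e-05). The change in the first comparison, within slide 1, was 0.93, and the difference between the 2 changes was 0.09 (SE 0.22, adjusted p = 0.836). Of the microglial markers 12 of 12 were again above 0 and 10 were called higher, with a mean level of -0.98 to -0.66 in WT_WASHOUT and 0.35 to 0.88 in APP-PS1_WASHOUT. Their bearing on Cd68 was not tested.

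Idua, the α-L-iduronidase that acts beside Ids on dermatan and heparan sulfate, measured 4.69, 4.51, 4.64, 4.48 and 4.28 in WT_WASHOUT and 6.16, 6.10 and 5.74 in APP-PS1_WASHOUT. It rose 2.79-fold (log2 1.48, SE 0.19, adjusted p = 6.23e-06), and no array of the 2 groups overlapped. Gla measured 6.58, 6.52, 6.54, 6.50 and 6.28 against 7.48, 7.59 and 7.36, a 1.99-fold rise without overlap (log2 0.99, SE 0.11, adjusted p = 1.28e-06). Under quantile normalization the Gla change was 0.55 and still called. Gaa, the acid α-glucosidase that degrades glycogen, measured 5.88, 5.79, 5.64, 5.87 and 5.77 against 6.30, 6.12 and 6.43 (0.50, SE 0.13, adjusted p = 0.00653), and its change fell to 0.24 (adjusted p = 0.131) under quantile normalization and to 0.27 (adjusted p = 0.136) under median scaling.

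On the 8 arrays of slide 3, Gla lay between 7.36 and 7.67 and Idua between 5.62 and 6.16. The 16 other arrays, wild-type and transgenic, lay between 6.17 and 6.98 for Gla and between 4.28 and 5.47 for Idua. APP-PS1_CTR replicate 1 was the highest of these 16 for both genes, above every wild-type array. These were the 2 members (6.06%) for which slide 3 did not overlap the rest, all of them upwards, beside 10.1% of all genes.

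The difference between the genotype effects at the 2 stages was called for 3 members. It was 1.26 for Idua (SE 0.27, adjusted p = 0.00342), 0.63 for Gla (SE 0.16, adjusted p = 0.0111) and 0.58 for Gaa (SE 0.19, adjusted p = 0.0428), all 3 higher after washout. Over all genes 14.3% were called in that test and 11.6% were called higher, so the 3 of 33 members were fewer in share. Stage and slide cannot be told apart in it. With the array row as a block none of the 3 passed (adjusted p = 0.169, 0.217 and 0.536). Of 13 processing alternatives, that block included, 7 ended the call for Gaa, 3 that for Gla and 1 that for Idua. The call for Gaa was also lost in 10 of 15 fits that left out 1 array. Among them were those without APP-PS1_CTR replicate 2 (0.50, adjusted p = 0.117) and APP-PS1_WASHOUT replicate 3 (0.50, adjusted p = 0.111).

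**Figure D3:**
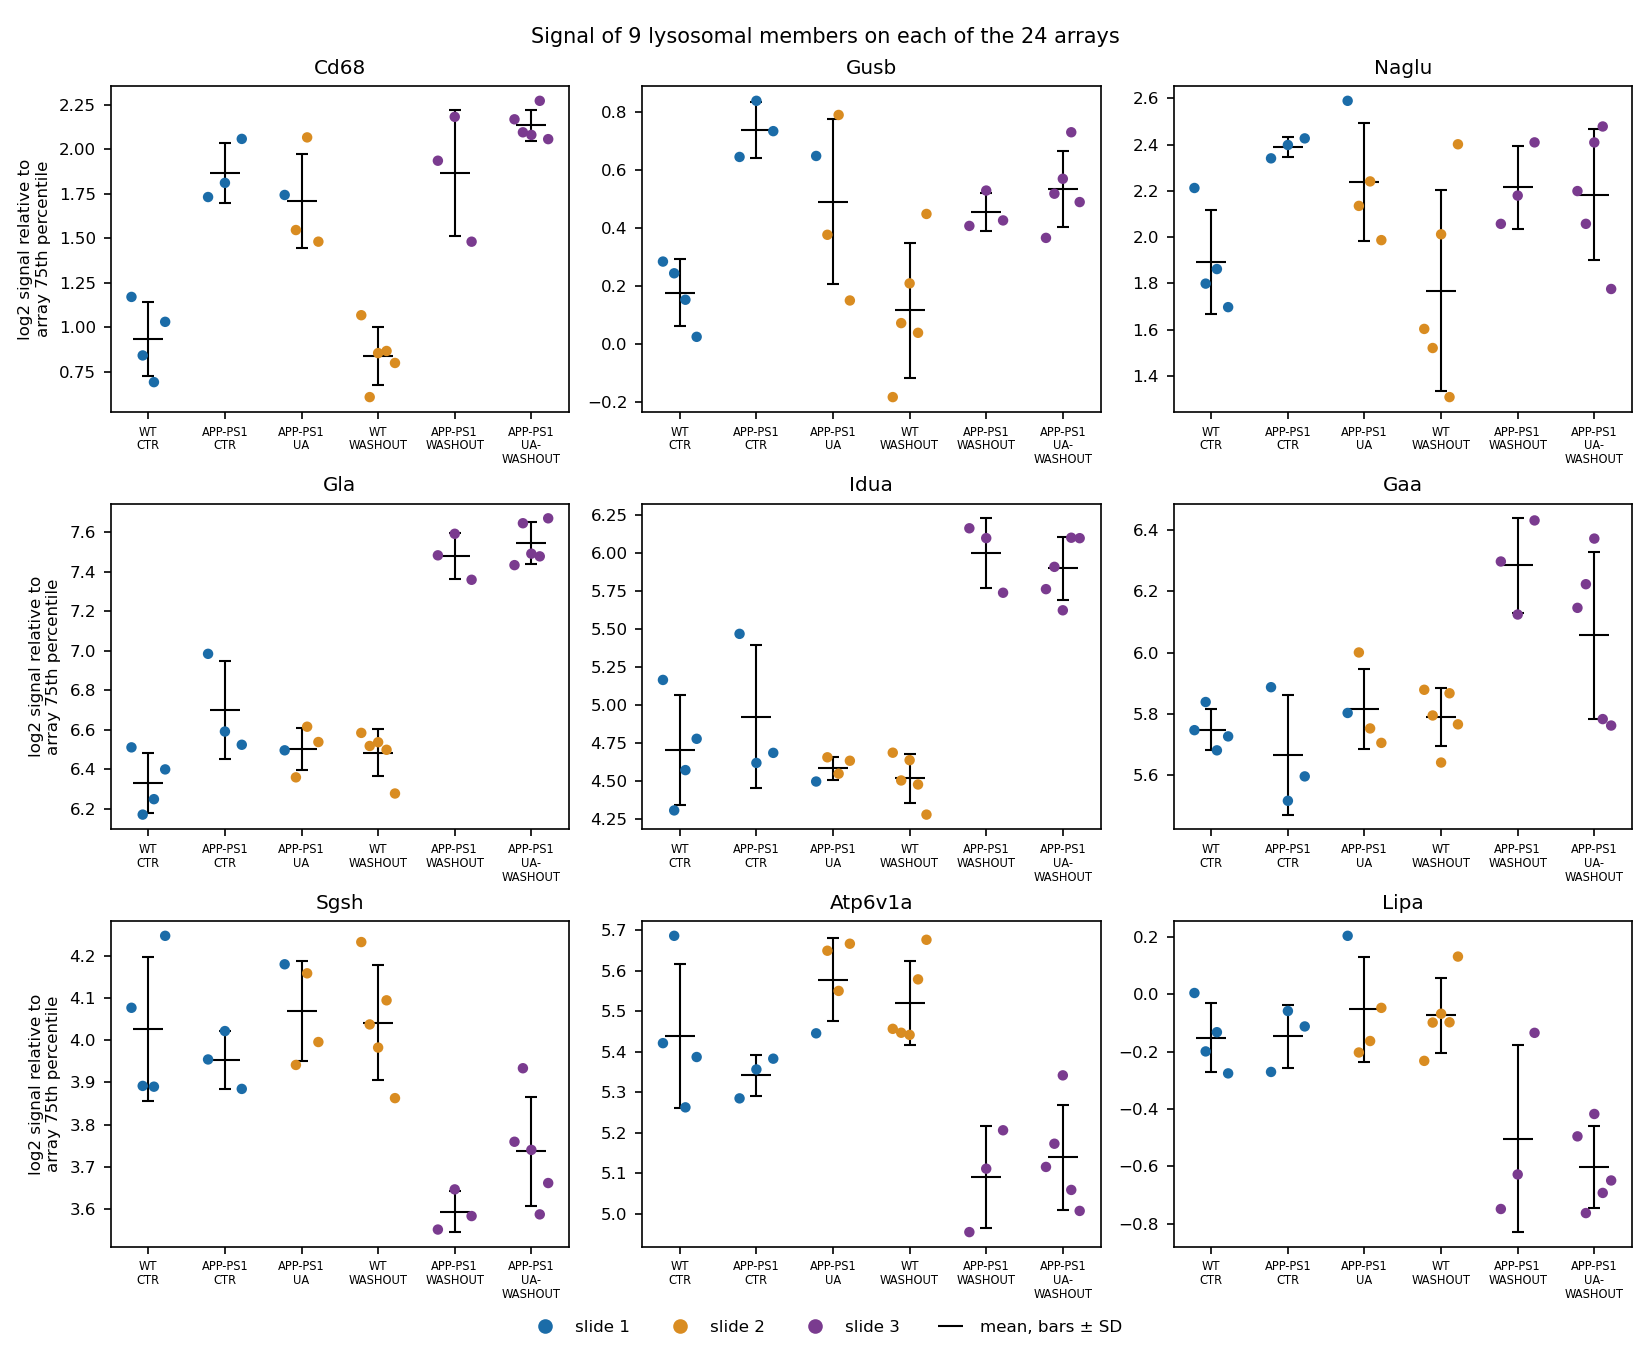
Log2 signal relative to the 75th percentile of the array for 9 members on each array, with group means and SD bars, coloured by slide. Cd68 separates transgenic from wild-type arrays on slides 1 and 2 and is as high on slide 3, which holds no wild-type array, whereas Gla and Idua separate the 8 arrays of slide 3 from the 16 others.

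Of the members called lower, Sgsh, the heparan N-sulfatase, measured 4.23, 4.04, 3.98, 4.09 and 3.86 in WT_WASHOUT and 3.55, 3.65 and 3.58 in APP-PS1_WASHOUT. All 3 transgenic arrays were below all 5 wild-type arrays (-0.45, SE 0.10, adjusted p = 0.00229). Its second probe was well above background on 3 arrays only and had a change of 0.96 (SE 0.41), so the mean of both probes turned positive (0.26). Atp6v1a measured 5.46, 5.45, 5.44, 5.58 and 5.68 against 4.95, 5.11 and 5.21, without overlap (-0.43, SE 0.10, adjusted p = 0.00284). Lipa, the acid lipase of cholesteryl ester breakdown, measured -0.23, -0.10, -0.07, -0.10 and 0.13 against -0.75, -0.63 and -0.13, where APP-PS1_WASHOUT replicate 3 lay among the wild-type arrays (-0.43, SE 0.13, adjusted p = 0.0169). Without APP-PS1_WASHOUT replicate 1 or replicate 2 Lipa was not called (-0.31, adjusted p = 0.130, and -0.37, adjusted p = 0.0909), nor with the array row as a block (-0.33, adjusted p = 0.159).

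The other 26 members were not called after washout. Among all members 5 had every transgenic array above every wild-type array and 3 had them below, beside 20.9% and 9.81% of all genes. Hexa, the α subunit of hexosaminidase, was higher on all 3 transgenic arrays (0.21, SE 0.09, adjusted p = 0.0816), and Mcoln1 was lower on all 3 (-0.20, SE 0.08, adjusted p = 0.0688). Gusb differed by 0.34 (SE 0.14, adjusted p = 0.0721) with overlapping groups. Besides Atp6v1a, the pump members lay between -0.07 for Atp6v1h and 0.09 for Atp6ap1. Among the 80 other lysosomal genes tested, 12 were called higher and 7 lower (23.8%), no larger a share than the 27.5% of all genes. The largest change was that of the acid nuclease Dnase2a (2.12, SE 0.32, adjusted p = 4.31e-05). Others among them were the tetraspanin Cd9 (0.99), Slc11a1 (0.90), Gpnmb, a glycoprotein of phagocytic cells (0.90), the sialic acid exporter Slc17a5 (0.74), Plbd2 (0.56), the pump subunit Tcirg1 (0.55), Rnasek (-0.54) and the sulfatase Galns (0.52).

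Scaling to the array median in place of the 75th percentile moved the median of all genes in this comparison from 0.07 to -0.15. The members called then numbered 12, of which 3 were higher and 9 lower, and 6 of the 7 named above were among them, all but Gaa. The split of calls over all genes moved from 6984 higher and 2718 lower to 4976 higher and 7874 lower, and to 4446 higher and 5314 lower under quantile normalization.

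APP-PS1_UA-WASHOUT was compared with APP-PS1_WASHOUT, both on slide 3, to ask whether treated and untreated transgenic animals differed 1 month after gavage ended. The untreated arrays and APP-PS1_UA-WASHOUT replicate 1 were in array row 1, and treated replicates 2 to 5 in row 2. The share of spots well above background was 70.2% to 73.2% in row 1 of this slide and 60.3% to 66.4% in row 2. Most treated arrays thus differed from the untreated ones in row as well. No member was called by limma, 1 had an unadjusted p under 0.05, and 23 of 35259 genes (0.0652%) were called. Npc1, the membrane protein that exports cholesterol from the lysosome, measured 2.27, 2.35 and 2.39 in APP-PS1_WASHOUT and 1.96, 1.99, 1.97, 2.20 and 2.17 in APP-PS1_UA-WASHOUT. All treated arrays were lower, with a change of -0.28 (SE 0.12, adjusted p = 0.595, 95% interval -0.53 to -0.03). It was the 1 member whose groups did not overlap in either direction, beside 5.41% of all genes.

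Cd68 measured 2.17, 2.09, 2.08, 2.27 and 2.06 on the treated arrays, which sat close together within the range of the 3 untreated ones except for replicate 4. Its change was 0.27 (SE 0.15, adjusted p = 0.716). The lowest untreated array, APP-PS1_WASHOUT replicate 3 at 1.48, pulled the group mean down. Gaa differed by -0.23 (SE 0.13, adjusted p = 0.710), where APP-PS1_UA-WASHOUT replicates 4 and 5 lay at 5.78 and 5.76 and the other treated arrays between 6.15 and 6.37. Scarb2 differed by -0.15 (SE 0.10, adjusted p = 0.761) and Sgsh by 0.14 (SE 0.10, adjusted p = 0.789). The median change was -0.02, the same as over all genes, and the intervals of 28 members lay within ±0.5 and of 32 within ±1. Ids and Atp6v1a, which had been higher on all treated arrays before washout, differed by -0.03 (SE 0.15) and 0.05 (SE 0.10) here. The difference between the 2 urolithin A effects was -0.49 for Ids (SE 0.21, adjusted p = 0.455) and -0.19 for Atp6v1a (SE 0.14, adjusted p = 0.685), and in that test limma called 0 members, beside 0.00851% of all genes. At an unadjusted p under 0.05 it had 1 member and 3571 of the 35259 genes.

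Compared with WT_WASHOUT, the treated washout animals had 10 members called (30.3%), beside 36.3% of all genes (23.0% higher and 13.4% lower), and here too slide and group cannot be told apart. Cd68 (1.30, SE 0.13), Idua (1.38, SE 0.16), Gla (1.06, SE 0.10) and Gusb (0.42, SE 0.12) were higher. Npc1 (-0.56, SE 0.10), Lipa (-0.53, SE 0.11), Atp6v1a (-0.38, SE 0.09), Sgsh (-0.31, SE 0.09), Scarb2 (-0.22, SE 0.08) and Mcoln1 (-0.19, SE 0.07) were lower. Mcoln1 and Scarb2 each lost the call in 7 of 10 fits that left out 1 array, with adjusted p-values up to 0.118 and 0.113. Mcoln1 was also not called under 5 of 13 processing alternatives, Scarb2 with the compared groups only (adjusted p = 0.120) and the replicate block, and Gusb under median scaling (0.12, adjusted p = 0.439) and with the deposited scores (adjusted p = 0.0745). Sgsh and Atp6v1a were not called lower with the deposited scores (adjusted p = 0.529 and 0.889). It shares the WT_WASHOUT arrays with the comparison of APP-PS1_WASHOUT and WT_WASHOUT. Between the 2 wild-type groups, WT_WASHOUT and WT_CTR, which lay on slides 2 and 1, 0 members were called by limma and 0 had an unadjusted p under 0.05. Over all genes 6 were called there (0.0170%) and 2920 had an unadjusted p under 0.05.

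Probes of the same gene did not always give like changes. Of the 33 members, 19 had 1 kept probe and 14 had several. The signs of all probes of a gene were the same for 11 of these 14 in the first comparison and for 10 after washout, and for 7 and 6 of them in the urolithin A comparisons before and after washout. The probes of Grn, which encodes progranulin, a secreted and lysosomal glycoprotein, had the widest range of changes in the first comparison (1.06), and those of Tfeb after washout (1.78). The brightest Grn probe, the one used above, measured 7.74, 3.07, 2.28 and 4.77 in WT_CTR and 4.11, 6.61 and 6.44 in APP-PS1_CTR, a change of 1.25 with an SE of 1.01. The probe A_55_P2909287 measured 3.59, 3.75, 3.40 and 3.56 in WT_CTR and 3.80, 3.90 and 3.71 in APP-PS1_CTR. Its change was 0.23 (SE 0.10) at the end of treatment and 0.30 (SE 0.09, adjusted p = 0.022 over all probes) after washout, while the third probe had 0.19 (SE 0.19) and -0.08 (SE 0.18).

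Tfeb, a master transcription factor of lysosomal genes, had 4 kept probes. The probe used had a change of 0.02 (SE 0.17) after washout and A_55_P1997898 had 0.31 (SE 0.18), neither called. A_51_P370082 had 0.69 (SE 0.16, adjusted p = 0.00337 over all probes) and A_66_P126230 had 1.80 (SE 0.22, adjusted p = 4.71e-06 over all probes), both called higher. Both gave far lower signals, with means over all arrays of -4.54 and -4.48, beside 0.36 for the probe used. On A_66_P126230 the 8 arrays of slide 3 lay between -3.84 and -3.10 and the 16 others between -5.91 and -4.35. Slide and genotype cannot be told apart in APP-PS1_WASHOUT versus WT_WASHOUT, where 27.5% of all genes were called. At the end of treatment all 4 Tfeb probes had changes between -0.27 and -0.10, none called. A pump subunit showed the reverse, since the second probe of Atp6v1b2, the B2 subunit of V1, had -0.83 (SE 0.11, adjusted p = 1.76e-05 over all probes) after washout and the probe used had -0.02 (SE 0.15). Cd68 had 2 probes with like changes in each of the 4 comparisons, 0.93 and 0.96, -0.16 and -0.20, 1.03 and 1.13, and 0.27 and 0.18.

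**Figure D4:**
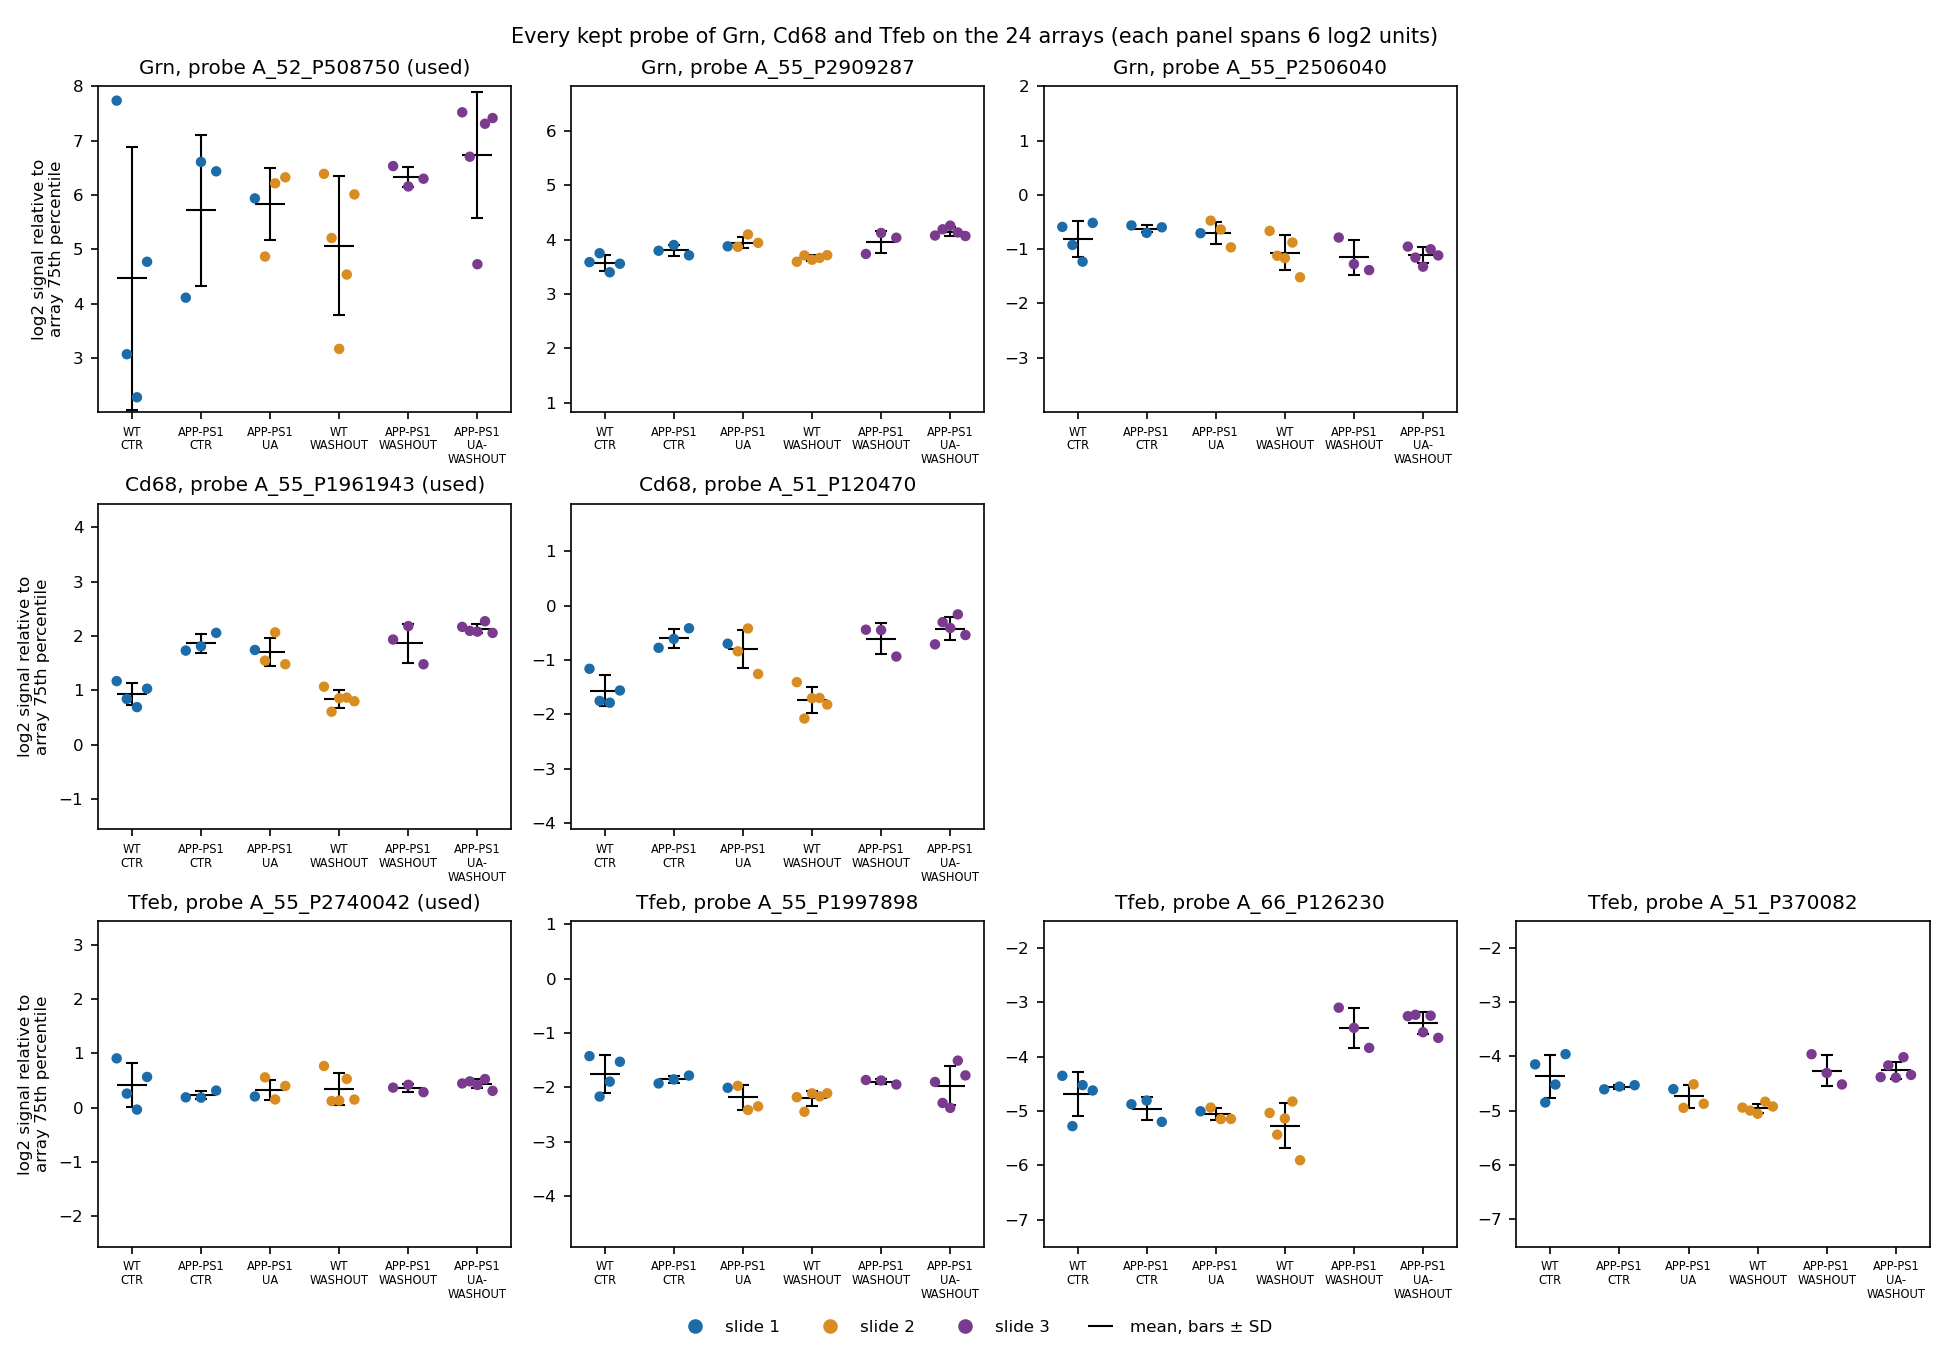
Log2 signal relative to the 75th percentile of the array for each kept probe of Grn, Cd68 and Tfeb on the 24 arrays, coloured by slide, with group means and SD bars; each panel spans 6 log2 units. The used Grn probe scatters within groups, the used Cd68 probe separates all wild-type from all transgenic arrays while its other probe overlaps at 1 transgenic array (-1.26, below WT_CTR replicate 1 at -1.16), and 1 Tfeb probe separates slide 3.

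Of the 9 members with an E-box in their promoter window, 0 were called in APP-PS1_CTR versus WT_CTR at the end of treatment. In that comparison 1 of the 20 members without an E-box was called, beside 0.170% of all genes, so the count of 0 carries little information. After washout, where slide and genotype cannot be told apart and 27.5% of all genes were called, 2 of the 9 were called higher (Gla and Gaa) and 2 lower (Sgsh and Atp6v1a). Their median change was -0.04 in the first comparison, 0.12 under urolithin A and -0.06 after washout. The 20 members without one had medians of 0.13, -0.01 and 0.10. Idua and Cd68, called higher after washout, and Lipa, called lower, were among these 20.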

How the data were processed

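Hippocampal RNA of 24 mice in 6 groups was measured, and groups were read from the sample labels. The authors' deposited scanner files hold spot intensities with background subtracted and not normalized between arrays, which per the file headers come from Feature Extraction 12.0.3.1. The series matrix, also deposited, holds a score, the log signal of each array standardized over its spots, with unit and log base lost. Its column medians ran from -0.17 to -0.06. The background and outlier flags of each spot are also the authors' deposited values. The log2 of the processed signal was averaged over spots of a probe without an outlier flag, and the 75th percentile of each array was subtracted. Probes well above background on at least 3 arrays were kept (43988 of 56605), 15 of these were removed for having fewer than 2 values without a flag in a group, and each gene was taken as its kept probe with the highest mean. Symbols came from RefSeq identifiers (GRCm38.p6), which named 18566 of the features and left 16693 unnamed. One limma 3.58.1 model (R 4.3.3) with 6 group means gave 9 contrasts, and a feature was called at an adjusted p (Benjamini-Hochberg, over all 35259) below 0.05. P-values of single probes were adjusted over all kept probes. The method was tested on simulated data.

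Alternatives were normexp background correction (from the median spot signal, offset 50, since no mean signal column is in the files), quantile normalization, median scaling, the deposited scores, no filter, probes above background on all 24 arrays, the mean of all probes of a gene, a fit of the compared groups only, trend and robust variances, array weights, blocks for slide, array row and replicate number, and leaving out each array. The members and lists were chosen with earlier results of these data known. Named genes are all members called, the 5 smallest p-values where fewer passed, and the 10 largest changes among other lysosomal genes called. One gene that this rule names is not reported here. In addition Naglu, Scarb2, members whose groups did not overlap and members with discordant probes were named after their values were seen. Replicates are separate animals. Deviations of arrays with the same replicate number were weakly correlated across groups (correlations -0.24 to 0.24). This cannot decide whether the numbers pair the animals, and the main fit did not pair them. Tables and plots used Python 3.11.15, pandas 2.3.3 and matplotlib 3.10.9. The number of arrays limits the precision.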

Additional observations from a re-analysis of the deposited data

Results flagged for a closer look

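Of 132 combinations of a member and a group of 4 or 5 arrays, 5 had an array far from the rest of its group, and chance alone gives about 1 in 20. Gla was low in WT_WASHOUT replicate 5 at 6.28, where the other 4 arrays lay between 6.50 and 6.58. In the same array Glb1, the β-galactosidase, was high at 2.31, with the others between 1.87 and 1.96. Neu1, the sialidase, was high in WT_CTR replicate 2 at 3.16 (others 2.88 to 2.93), and Npc1 in WT_CTR replicate 4 at 2.85 (others 2.69 to 2.71). Atp6v0d1, a subunit of the V0 sector, was low in WT_CTR replicate 3 at 3.83 (others 4.14 to 4.20).

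The genotype effect differed between the washout stage and the end of treatment for 3 members, with a difference of 1.26 for Idua (adjusted p = 0.00342), 0.63 for Gla (adjusted p = 0.0111) and 0.58 for Gaa (adjusted p = 0.0428) by limma. In this difference the slide and the stage cannot be told apart. Over all genes 14.3% were called in this test and 11.6% were called higher, a larger share than among the members. With the array row as a block none of the 3 passed.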

How the results depend on the processing

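Counts of members called are given with the alternative in place of the value in the report. The share of all genes called is not given here beside each alternative, so a changed count is not read as a result about the members. In APP-PS1_CTR versus WT_CTR the count of 1 became 0 with the compared groups only, within slide 1, with the array row block and with the replicate block, 2 with array weights, and 0 to 1 when 1 array was left out. In APP-PS1_WASHOUT versus WT_WASHOUT median scaling gave 12 (median change -0.16). In APP-PS1_UA versus WT_CTR the count of 0 became 1 under median scaling, the background filter on all 24 arrays, trend and robust variances, array weights and slide as a random block. In APP-PS1_UA-WASHOUT versus WT_WASHOUT the count of 10 became 17 under median scaling (median change -0.24) and 17 with the deposited scores. The main fit already called 36.3% of all genes in that comparison. The count of 3 for the difference in genotype effect became 1 under quantile normalization, 6 under median scaling (median difference -0.31), 6 with array weights and 0 with the array row block. For the difference in urolithin A effect the median moved to 0.072 under quantile normalization and -0.10 under median scaling. Sgsh turned positive with the mean of all kept probes (0.26 in APP-PS1_WASHOUT and 0.53 in APP-PS1_UA-WASHOUT, both versus WT_WASHOUT). With the deposited scores Gaa turned to 0.0173 in APP-PS1_UA-WASHOUT versus APP-PS1_WASHOUT and Atp6v1a to 0.0040 in APP-PS1_UA-WASHOUT versus WT_WASHOUT, in units of the array SD. Apart from the second probe of Sgsh, the cause of these shifts was not tested. Among the named members the replicate block ended the call of Cd68 in APP-PS1_CTR versus WT_CTR (0.93, adjusted p = 0.0538), of Scarb2 in APP-PS1_UA-WASHOUT versus WT_WASHOUT (-0.22, adjusted p = 0.0510) and of Gaa in the difference in genotype effect (0.54, adjusted p = 0.0698), and it changed no other call of a named member.

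The groups hold 3 to 5 animals. A fixed block for slide could not be fitted for the transgenic washout groups versus WT_WASHOUT, since each of those groups lay on 1 slide. The urolithin A counts of 0 members, before and after washout, held under every alternative with more than 1 array per group, including each array left out. In the main fit 0 of 35259 genes (0.00%) were called before washout and 23 (0.0652%) after it. With so few calls over the whole array, a count of 0 among 33 members carries little information.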

Other observations

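Of 21 tested genes that bring hydrolases to the lysosome or sense its nutrients, 6 were called after washout (28.6%), about the share of all genes (27.5%), and 15 were not. In APP-PS1_WASHOUT versus WT_WASHOUT, Gnptg, the γ subunit of the phosphotransferase that tags hydrolases with mannose 6-phosphate, was higher (0.49, SE 0.07, adjusted p = 4.37e-05 by limma), as was Nagpa, the enzyme that uncovers the tag (0.45, SE 0.12, adjusted p = 0.00868). Igf2r, the large receptor for mannose 6-phosphate, was lower (-0.39, SE 0.12, adjusted p = 0.0156), together with the Rag GTPases Rragc (-0.36, SE 0.10) and Rragd (-0.31, SE 0.11) and the folliculin partner Fnip1 (-0.33, SE 0.11). Slide and genotype cannot be told apart in this comparison. In APP-PS1_CTR versus WT_CTR 0 of the 21 were called.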
